A study of Mus musculus with 27 samples.

Results

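Weight regain was compared with maintained weight loss in the epididymal white adipose tissue (eWAT) of C57BL/6N mice, the visceral fat pad beside the testis. The 6 libraries were chosen by their labels, out of 27 in the series. Both groups were fed fat-rich chow (60% of its calories as fat) for 8 weeks, and then normal diet for 4 weeks. They differed in the last 4 weeks: the regain group (3 libraries) was put back on the high-fat diet, and the maintenance group (3 libraries) stayed on normal diet, so that it had 8 weeks of normal diet in all. Both were 21 weeks old at the end, after 16 weeks of feeding. Another pair of groups of the same age served to set this step beside a first exposure: gain4 (3 libraries) had normal diet and then the high-fat diet for its last 4 weeks, and control16 (3 libraries) had normal diet for 16 weeks. Nothing in the labels says that the 3 libraries of a group come from different mice. The p-values then rest on the spread between libraries, which may be technical. The mice carry no allele named in the labels, and body and fat pad weights are not given there.

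Epididymal fat stores triglyceride in adipocytes and releases hormones such as leptin and adiponectin. On a high-fat diet its adipocytes enlarge, and macrophages gather around dying adipocytes, where many take up lipid and express a lysosomal and lipid-handling programme marked by Trem2. Weight loss shrinks the adipocytes, while immune cells can persist for some time. In a whole fat pad, fewer cells of a type and less RNA of a gene per cell cannot be told apart.

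Levels are given as CPM, the usual depth-scaled unit that sets a gene's counts against all counts of its library, with library sizes scaled by the trimmed mean of M values (TMM) so that libraries of different makeup can be compared. Differences are log2 fold changes of regain over maintenance, from edgeR's quasi-likelihood test over all 27 libraries. The standard error (SE) printed after ± was derived from that test. It is the absolute log2 fold change divided by the square root of the test's F statistic. A gene is called where its Benjamini-Hochberg adjusted p is under 0.05. Each result was also computed without maintenance library 3, for the reason given next. An exact permutation test of 3 libraries against 3 could not give a p below 0.1.

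The regain libraries held 26996378 to 31661335 counts, and the maintenance libraries 26479773 to 29808500. Maintenance library 3 stood apart from every other library of the series. Its 15 liver genes other than Cyp2e1, which fat also expresses, summed to 8559 CPM, against 8.10 to 140 CPM in the other 26 libraries. Alb, which encodes serum albumin, was at 2.36, 17.4 and 4.33 CPM in regain libraries, against 14.6, 13.3 and 5233 CPM in maintenance libraries 1 to 3. The TMM factor of that library was 0.814, against 0.990 to 1.04 in the 5 others. Lars2, a mitochondrial leucyl-tRNA synthetase gene whose mouse locus holds a repeat like ribosomal RNA, was at 172, 1971 and 2549.7 CPM in regain libraries, against 135, 189.8 and 4104 CPM in maintenance libraries. It was thus high in regain libraries 2 and 3 and in maintenance library 3. Beyond the fits without maintenance library 3 and with the Lars2-high libraries as a model term, the part of either feature in a gene's change was not tested.

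Regain and maintenance differed across a wide set of genes. Most genes of the macrophage, lysosome, matrix and cell cycle lists below were called higher in regain, and most of the adipocyte and branched-chain amino acid breakdown lists lower. With all libraries, 4790 of 17821 genes were called (26.9%), 2473 of them higher in regain (13.9%) and 2317 lower (13%). Without maintenance library 3, 4961 of 18358 genes were called (27%), 2586 higher (14.1%) and 2375 lower (12.9%). The same direction was called in both fits for 3538 genes (19.9%), which is 73.9% of the first set of calls and 71.3% of the second. Another 8 genes, Acly and 7 others, were called in both with opposite signs. By at least 2-fold, 1535 genes were higher and 1344 lower with all libraries. The CPM values of the groups did not overlap for 5796 of the genes tested (32.5%), with regain above for 3141 (17.6%) and below for 2655 (14.9%). The median log2 fold change over all genes was -0.07 with all libraries and -0.02 without maintenance library 3. Of the calls with all libraries 51.6% were higher. Limma on the deposited FPKM values put this share at 76%, with the median of all genes shifted by 0.13 on the log2 scale. The calls and fold changes below are not corrected for that shift. Where the spread was estimated from the 6 compared libraries alone, 1580 genes were called, 71.3% of them higher.

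**Figure D1:**
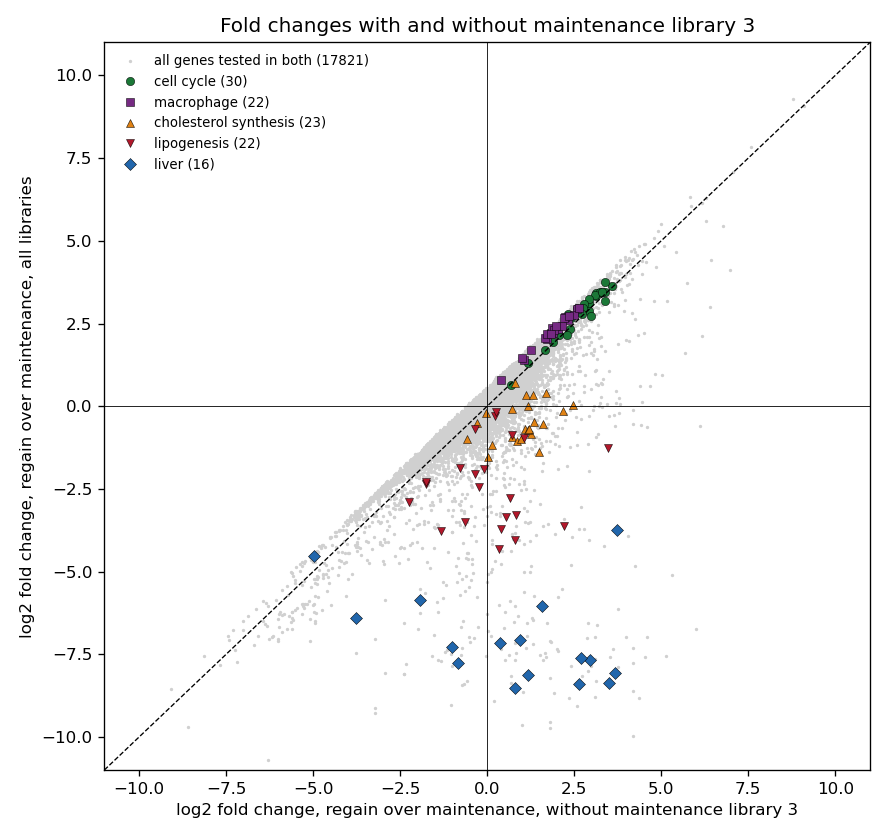
Each point is a gene, with its log2 fold change of regain over maintenance without maintenance library 3 on the horizontal axis and with all libraries on the vertical axis. Cell cycle and macrophage genes lie near the dashed line of equal values, while most lipogenesis, cholesterol synthesis and liver genes lie below it. Cyp2e1 of the liver list lies above it.

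Among the largest rises that held in both fits, with groups that did not overlap, was that of Itgad, the beta-2 integrin chain CD11d. It was at 97, 24.3 and 59.3 CPM in regain libraries, against 0.905, 3.03 and 0.574 CPM in maintenance libraries (log2 fold change 5.29 ± 1.07, adjusted p = 0.00114). Groups without overlap were a condition of the choice for all genes of this set. Il1rn, the interleukin-1 receptor antagonist, was at 97.6, 117 and 119 CPM in regain libraries, against 5.96, 5.52 and 1.5 CPM in maintenance libraries (log2 fold change 4.67 ± 0.84, adjusted p = 0.000404). The ubiquitin-like Ubd was at 352, 142 and 200.2 CPM in regain libraries, against 6.79, 22.6 and 2.91 CPM in maintenance libraries (log2 fold change 4.42 ± 0.91, adjusted p = 0.00138). Tph2, a tryptophan hydroxylase known from serotonin neurons, was at 191, 64.5 and 54.9 CPM in regain libraries, against 1.21, 7.30 and 6.67 CPM in maintenance libraries (log2 fold change 4.35 ± 1.19, adjusted p = 0.0100). Its regain libraries ranged widely, from 54.9 to 191 CPM. The others chosen by the same rule were Nptx1, a secreted pentraxin of neurons (6.06 ± 1.14), the calcium-binding Pvalb (4.49 ± 0.87), the transcription factor gene St18 (4.39 ± 0.81), Tm4sf19 of the tetraspanin-like family (4.20 ± 0.83), the replication checkpoint gene Clspn (4.03 ± 0.53) and the DNA repair gene Brca1 (4.03 ± 0.54).

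The largest falls in both fits included genes of hepatocyte metabolism that were highest in maintenance library 3. Apoc3, an apolipoprotein, was at 0.861, 0.709 and 0.363 CPM in regain libraries, against 15.4, 1.51 and 146 CPM in maintenance libraries. Tdo2, a tryptophan dioxygenase, was at 0.262, 0.801 and 0.514 CPM in regain libraries, against 1.77, 2.15 and 88.7 CPM in maintenance libraries. Further genes of this kind were Hgd, at 0.0374, 0.0925 and 0.0303 CPM in regain libraries, against 0.453, 0.135 and 47.6 CPM in maintenance libraries, and Ttc36, at 0.262, 0.0925 and 0.121 CPM in regain libraries, against 1.77, 0.606 and 25.4 CPM in maintenance libraries. The rule that chose these 4 genes admits only groups that do not overlap, so that order was fixed in advance. Tdo2, Hgd and Ttc36 reached the rule's mean of 5 CPM only through maintenance library 3. Acsm3, a medium-chain acyl-CoA synthetase gene, was at 1.27, 1.45 and 1.45 CPM in regain libraries, against 75.2, 10.3 and 11.4 CPM in maintenance libraries (log2 fold change -4.53 ± 0.81, adjusted p = 0.000393; -4.99 without maintenance library 3). Ripk4, a kinase gene of epithelia, was at 0.187, 0.277 and 0.121 CPM in regain libraries, against 6.00, 6.49 and 2.65 CPM in maintenance libraries (log2 fold change -4.66 ± 0.72, adjusted p = 9.83e-05). Rassf6, a Ras association domain gene, was at 0.112, 0.0925 and 0.393 CPM in regain libraries, against 15.5, 1.21 and 2.87 CPM in maintenance libraries (log2 fold change -4.98 ± 0.79, adjusted p = 0.000128). Cfd and the mesothelial Muc16, also of this set, are described with their groups below.

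Of 22 adipocyte genes, 15 fell in regain (13% of all genes tested did so) and 1 rose. The median log2 fold change was -1.10. Without maintenance library 3 the counts were 12 and 0, with a median of -1.11. Cfd, which encodes the complement protease adipsin, was at 334, 474 and 397 CPM in regain libraries, against 21084, 3862 and 6789.5 CPM in maintenance libraries (log2 fold change -4.72 ± 0.75, adjusted p = 0.000126; -5.01 without maintenance library 3). The regain libraries lay close together and far below all 3 maintenance libraries. The list had 8 lower by limma on FPKM and 6 with the 6 compared libraries alone. Macrophage transcripts, given below, moved the other way in the same libraries, and the part of cell makeup in this fall was not tested. Retn, the hormone resistin in mouse fat, was at 154, 281 and 197 CPM in regain libraries, against 1885, 774 and 2617 CPM in maintenance libraries (log2 fold change -3.06 ± 0.55, adjusted p = 0.000444). Adipor2, an adiponectin receptor, was at 404, 527 and 405 CPM in regain libraries, against 1349.7, 1284 and 1319.7 CPM in maintenance libraries (log2 fold change -1.57 ± 0.22, adjusted p = 5.03e-05). The secreted growth factor gene Nrg4 was at 14.1, 28.9 and 29.7 CPM in regain libraries, against 96.0, 119.7 and 152 CPM in maintenance libraries (log2 fold change -2.33 ± 0.40, adjusted p = 0.000254). For both, the groups did not overlap.

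Leptin and adiponectin transcripts moved in opposite directions, each with a wide spread in maintenance. Lep, which encodes the satiety hormone leptin, was at 4000.2, 3078 and 2394 CPM in regain libraries, against 74.1, 1742 and 743 CPM in maintenance libraries (log2 fold change 1.89 ± 0.66, adjusted p = 0.0380). Every regain library lay above every maintenance library, while maintenance library 1 was far below maintenance library 2. The Lep call ended without regain library 1 (1.69), regain library 2 (1.90), regain library 3 (2.06), maintenance library 1 (1.34) or maintenance library 3 (1.79). Adipoq, which encodes adiponectin, was at 1939.6, 1772 and 1251 CPM in regain libraries, against 5812, 4387 and 1631 CPM in maintenance libraries (log2 fold change -1.25 ± 0.44, adjusted p = 0.0393). Regain libraries 1 and 2 lay above maintenance library 3. Without maintenance library 3 its log2 fold change was -1.66 ± 0.42 (adjusted p = 0.00662). Its call with all libraries ended without regain library 1 (-1.37), regain library 2 (-1.31), regain library 3 (-1.09), maintenance library 1 (-0.87) or maintenance library 2 (-1.17). Mest, a gene that marks expanding fat pads, was at 400.0, 473 and 248 CPM in regain libraries, against 50.7, 715 and 51.4 CPM in maintenance libraries. The Wnt inhibitor Sfrp5 was at 438, 398 and 188 CPM in regain libraries, against 22.2, 719 and 9.41 CPM in maintenance libraries. Maintenance library 2 was the highest of the 6 for both and the other maintenance libraries were the lowest, so the groups overlapped (adjusted p = 0.741 and 0.761). Bmp3, a growth factor gene, was the call among the 6 fat pad expansion genes with all libraries, at 142, 45.8 and 41.9 CPM in regain libraries, against 8.45, 47.3 and 5.21 CPM in maintenance libraries (log2 fold change 1.91 ± 0.64, adjusted p = 0.0314). A single call among 6 genes is a share close to the 13.9% of all genes tested that rose. The Bmp3 call ended without regain library 1 (1.12), maintenance library 1 (1.53) or maintenance library 3 (1.44). The list's call without maintenance library 3 was instead the imprinted gene Nnat, which was lower (-1.25). Limma on FPKM called 3 higher, and with the 6 compared libraries alone none was called.

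**Figure D2:**
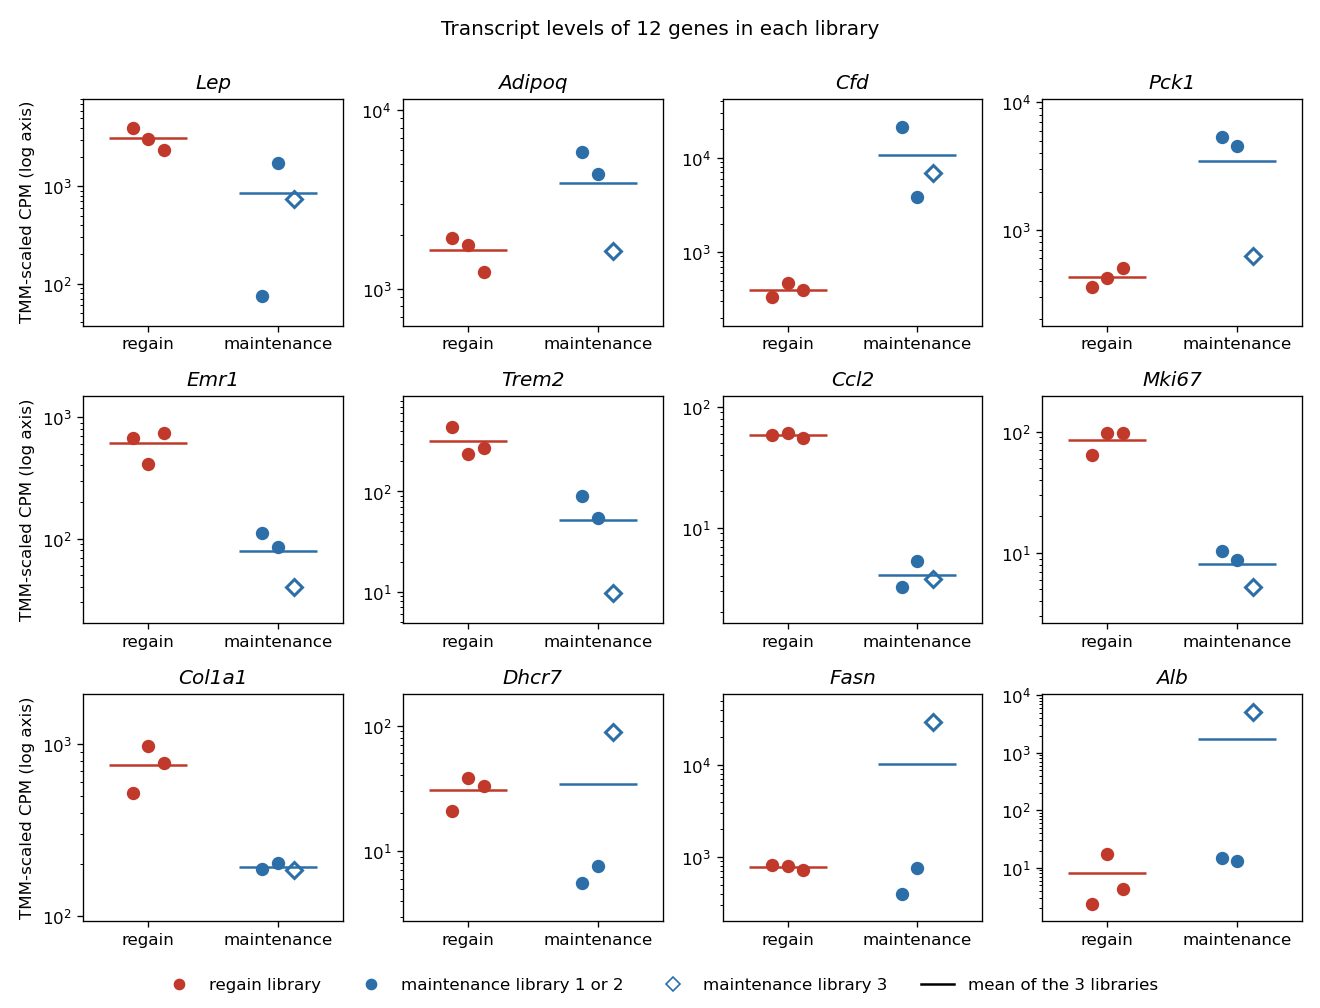
TMM-scaled CPM on a logarithmic axis of 12 genes in each of the 3 regain and 3 maintenance libraries, with lines at the means and an open diamond for maintenance library 3. Cfd and Pck1 are lower and Emr1, Trem2, Ccl2, Mki67 and Col1a1 higher in every regain library than in every maintenance library, while Dhcr7, Fasn and Alb have their highest value in maintenance library 3.

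Genes of triglyceride release and of its control by catecholamines fell in 8 of 18 cases and rose in none (median -0.86), and in 6 and 0 cases without maintenance library 3. With the 6 compared libraries alone 2 fell, and limma on FPKM gave 6 lower and 1 higher. Adrb3, the beta-3 adrenergic receptor of adipocytes, was at 29.1, 118 and 129.7 CPM in regain libraries, against 1034, 505 and 492 CPM in maintenance libraries (log2 fold change -2.88 ± 0.50, adjusted p = 0.000333). Lipe, hormone-sensitive lipase, was at 901, 1009 and 918 CPM in regain libraries, against 1793, 2096 and 2002 CPM in maintenance libraries (log2 fold change -1.06 ± 0.28, adjusted p = 0.00851). Neither gene's groups overlapped. Pde3b, the phosphodiesterase through which insulin restrains lipolysis, was at 186, 201 and 173 CPM in regain libraries, against 560.0, 421 and 333 CPM in maintenance libraries (log2 fold change -1.23 ± 0.31, adjusted p = 0.00589). Abhd5, the coactivator of adipose triglyceride lipase, was at 86.4, 101 and 94.2 CPM in regain libraries, against 134, 121 and 287 CPM in maintenance libraries (log2 fold change -0.94 ± 0.24, adjusted p = 0.00740). The Abhd5 call ended without maintenance library 3 (-0.48). Slc27a1, a fatty acid transporter gene, was at 519.9, 357 and 269.6 CPM in regain libraries, against 1737, 1064 and 529 CPM in maintenance libraries (log2 fold change -1.54 ± 0.34, adjusted p = 0.00220). Of the 15 fatty acid uptake genes it and Acsl1 were called with all libraries, both lower, a share close to the 13% of all genes that fell. None was called with the 6 compared libraries alone. The Acsl1 call ended without regain library 1 (-0.62), regain library 2 (-1.12), regain library 3 (-1.15) or maintenance library 3 (-0.46). When maintenance library 3 was left out, the list had 3 higher, Acsl4 (0.55), Acsl5 (0.53) and Fabp5 (1.60), and 2 lower, Slc27a1 (-1.91) and Fabp4 (-1.14). Limma on FPKM gave 2 higher and 1 lower with all libraries.

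Of 14 triglyceride synthesis genes 9 fell and none rose with all libraries, against 6 lower and 3 higher without maintenance library 3. Pck1, the key enzyme of glyceroneogenesis, was at 359, 419 and 503 CPM in regain libraries, against 5341, 4506 and 622 CPM in maintenance libraries (log2 fold change -3.03 ± 0.62, adjusted p = 0.00122; -3.57 without maintenance library 3). Maintenance library 3 was far below the other 2 maintenance libraries, yet above all regain libraries. The 3 genes higher without it were Gpd1 (0.98), Mogat2 (1.60) and Dgat2 (1.70). Mogat1, a monoacylglycerol acyltransferase gene, was at 2.58, 4.32 and 2.94 CPM in regain libraries, against 32.5, 20.8 and 29.8 CPM in maintenance libraries (log2 fold change -3.07 ± 0.45, adjusted p = 6.39e-05). Dgat1, which completes triglyceride synthesis, was at 95.2, 136 and 117 CPM in regain libraries, against 448, 158 and 460.2 CPM in maintenance libraries (log2 fold change -1.61 ± 0.33, adjusted p = 0.00128). Agpat9, the glycerol-phosphate acyltransferase gene also called Gpat3, was at 16.3, 60.3 and 49.3 CPM in regain libraries, against 162, 88.5 and 341 CPM in maintenance libraries (log2 fold change -2.23 ± 0.48, adjusted p = 0.00201). With the 6 compared libraries alone 1 gene of the list was called.

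Among 18 insulin signalling genes, 7 fell and 3 rose (5 and 1 without maintenance library 3, and 4 and 1 with the 6 compared libraries alone). Of all genes tested 13% fell and 13.9% rose (12.9% and 14.1% without maintenance library 3). The share of the list that rose was close to that background with all libraries, and below it without maintenance library 3. Insr, the insulin receptor, was at 71.6, 91.7 and 81.1 CPM in regain libraries, against 204, 188 and 166 CPM in maintenance libraries (log2 fold change -1.19 ± 0.18, adjusted p = 0.000103). The kinase Akt2, further down the pathway, was at 253, 304 and 293 CPM in regain libraries, against 568, 546 and 718 CPM in maintenance libraries (log2 fold change -1.11 ± 0.19, adjusted p = 0.000280). For both, every regain library lay below every maintenance library. Ptpn1, the phosphatase that acts on the insulin receptor, was at 90.4, 99.6 and 136 CPM in regain libraries, against 42.1, 51.0 and 59.7 CPM in maintenance libraries (log2 fold change 1.09 ± 0.29, adjusted p = 0.00781). The call was lost without regain library 3 (0.90). Slc2a4, the insulin-responsive glucose transporter GLUT4, was at 47.7, 102 and 106 CPM in regain libraries, against 83, 95.9 and 562 CPM in maintenance libraries. Its call (-1.53 ± 0.52, adjusted p = 0.0344) ended without regain library 1 (-1.24), regain library 2 (-1.69), regain library 3 (-1.72) or maintenance library 3 (-0.11). Among the 5 libraries other than maintenance library 3 the groups overlapped.

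Macrophage transcripts were higher in regain. Of 22 macrophage markers 21 rose and none fell, where 13.9% of all genes tested rose. The median log2 fold change was 2.32. Of the same genes, 20 rose without maintenance library 3 (median 1.90). Summed over the list, the level was 12038, 6767 and 10232 CPM in regain libraries, against 3494, 2563 and 932 CPM in maintenance libraries. Emr1, which encodes F4/80, was at 667, 414 and 738 CPM in regain libraries, against 112, 85.6 and 40.3 CPM in maintenance libraries (log2 fold change 2.93 ± 0.41, adjusted p = 4.78e-05). The lowest regain library lay far above the highest maintenance library. Itgax, which encodes CD11c, was at 218, 142 and 113 CPM in regain libraries, against 33.9, 44.0 and 9.58 CPM in maintenance libraries (log2 fold change 2.43 ± 0.61, adjusted p = 0.00568). Cybb, the catalytic chain of the phagocyte oxidase (2.60 ± 0.37), the actin regulator Coro1a (2.04 ± 0.29) and the beta-glucan receptor Clec7a (2.76 ± 0.41) rose as well.

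Of 22 genes of lipid-associated macrophages, 16 rose and 1 fell (15 and 3 without maintenance library 3). With the 6 compared libraries alone 8 rose and none fell. Trem2, their lipid receptor, was at 444, 236 and 269 CPM in regain libraries, against 90.5, 54.6 and 9.67 CPM in maintenance libraries (log2 fold change 2.62 ± 0.67, adjusted p = 0.00647; 2.09 without maintenance library 3). Gpnmb, a glycoprotein of lipid-laden macrophages, was at 1928, 1687 and 1286 CPM in regain libraries, against 304, 219 and 43.2 CPM in maintenance libraries (log2 fold change 3.11 ± 0.75, adjusted p = 0.00453). For both, maintenance library 3 was the lowest library and maintenance libraries 1 and 2 lay between it and the regain libraries. The acid lipase Lipa was at 766, 866 and 885 CPM in regain libraries, against 173, 169 and 114 CPM in maintenance libraries (log2 fold change 2.46 ± 0.36, adjusted p = 7.00e-05). The sugar-phosphate carrier Slc37a2 rose by 3.21, galectin-3 (Lgals3) by 2.62 and cathepsin K (Ctsk) by 2.28 on the log2 scale. The gene that fell was Apoe, which adipocytes also express, at 3881, 2197 and 3755 CPM in regain libraries, against 9987, 5622 and 5046 CPM in maintenance libraries (log2 fold change -1.07 ± 0.34, adjusted p = 0.0246). The Apoe call ended without regain library 2 (-0.86) or maintenance library 1 (-0.70).

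Of 18 genes of resident macrophages 5 fell and 2 rose, the same 7 genes with and without maintenance library 3. Over all genes tested 13% fell and 13.9% rose, so the share that rose was close to that background. Of the 5 that fell, 1 kept its call without any 1 of the 6 libraries, as did the 2 that rose. Limma on FPKM turned the balance to 4 higher and 2 lower. In the 6 compared libraries alone 3 fell and none rose. The lectin gene Cd209b was at 6.18, 6.07 and 4.30 CPM in regain libraries, against 72.5, 20.6 and 14.8 CPM in maintenance libraries (log2 fold change -2.70 ± 0.58, adjusted p = 0.00199). Its regain libraries all lay below the maintenance libraries. Cd209d, a gene of the same lectin family, was at 4.98, 7.58 and 3.75 CPM in regain libraries, against 36.3, 14.1 and 16.4 CPM in maintenance libraries (log2 fold change -2.03 ± 0.57, adjusted p = 0.0119). This call ended without regain library 3 (-1.82) or maintenance library 1 (-1.48). The mannose receptor Mrc1 rose, with 377, 256 and 493 CPM in regain libraries, against 203, 135 and 99.4 CPM in maintenance libraries (log2 fold change 1.37 ± 0.33, adjusted p = 0.00455). The folate receptor Folr2 rose too (1.28 ± 0.30). Cd163, a haemoglobin scavenger receptor, was at 34.9, 40.0 and 41.6 CPM in regain libraries, against 113, 65.0 and 39.7 CPM in maintenance libraries, and was not called (adjusted p = 0.153). Maintenance library 3 lay among its regain values. The Cd209 lectins are close paralogs. How reads matching several of them were counted is not stated in the labels, so their split is uncertain.

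Lysosomal genes rose in 23 of 27 cases and fell in none (21 and 0 without maintenance library 3). Fitted on the 6 compared libraries alone, 8 rose. Gusb, beta-glucuronidase, was at 309, 371 and 389 CPM in regain libraries, against 96.1, 97.5 and 89.1 CPM in maintenance libraries (log2 fold change 1.92 ± 0.25, adjusted p = 2.61e-05). Alpha-galactosidase (Gla, 2.14 ± 0.32) and the heparan sulfate enzyme Naglu (0.86 ± 0.13) rose as well. Of 27 cytokines, chemokines and their receptors 18 rose and none fell (15 of 28 without maintenance library 3). Ccl2, the monocyte attractant, was at 58.0, 60.9 and 55.6 CPM in regain libraries, against 3.24, 5.28 and 3.75 CPM in maintenance libraries (log2 fold change 3.82 ± 0.53, adjusted p = 4.36e-05). The regain libraries lay close together and far above every maintenance library. Its receptor Ccr2 was at 99.8, 108 and 102.9 CPM in regain libraries, against 23.0, 29.1 and 19.1 CPM in maintenance libraries (log2 fold change 2.13 ± 0.29, adjusted p = 3.72e-05). Tgfb1, a cytokine of tissue repair, rose by 1.81 ± 0.29 on the log2 scale.

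MHC class II genes, which present antigen to CD4 T cells, rose in 8 of 11 cases in both fits, and in 3 with the 6 compared libraries alone. Ciita, their master regulator, was at 47.5, 28.0 and 114 CPM in regain libraries, against 5.73, 9.59 and 6.71 CPM in maintenance libraries (log2 fold change 3.10 ± 0.46, adjusted p = 7.88e-05). The peptide loading chain H2-DMb1 was at 158, 87.6 and 182 CPM in regain libraries, against 28.5, 36.0 and 15.5 CPM in maintenance libraries (log2 fold change 2.42 ± 0.31, adjusted p = 2.95e-05). H2-DMa rose by 2.11 and the invariant chain Cd74 by 1.93 on the log2 scale. Regain library 3 was the highest of the 6 for each of these genes. It was also the highest for each of 20 interferon-induced genes, of which 12 rose (7 without maintenance library 3, and none with the 6 compared libraries alone). Gbp2, a guanylate-binding protein gene, was at 185, 73.2 and 472 CPM in regain libraries, against 55.0, 51.9 and 73.8 CPM in maintenance libraries (log2 fold change 2.01 ± 0.39, adjusted p = 0.000813). Oas3, an antiviral sensor gene, was at 6.03, 3.48 and 16.3 CPM in regain libraries, against 2.19, 1.38 and 1.24 CPM in maintenance libraries (log2 fold change 2.42 ± 0.52, adjusted p = 0.00205). Regain library 2 lay within the maintenance values for Gbp2, but above them for Oas3. Stat2, the interferon signal carrier, lost its call without regain library 3 (0.50), and Oas1a, another antiviral sensor gene, rose by 1.84 ± 0.36 on the log2 scale.

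Of 22 T and NK cell genes 6 rose, where 13.9% of all genes did so. Only 3 rose without maintenance library 3, where 14.1% of all genes did so, a share close to that background, and 1 rose with the 6 compared libraries alone. The interleukin-7 receptor Il7r was at 99.5, 81.9 and 75.0 CPM in regain libraries, against 19.95, 19.9 and 3.09 CPM in maintenance libraries (log2 fold change 2.57 ± 0.50, adjusted p = 0.000806). The granzyme Gzma (1.71 ± 0.51) lost its call without regain library 3 (1.34), and the T cell surface gene Thy1 (1.30 ± 0.40) without regain library 3 (1.06) or maintenance library 1 (1.22). Cd4 (1.77 ± 0.55) lost it without regain library 3 (0.54), maintenance library 1 (1.52) or maintenance library 3 (1.49). Among 10 B cell genes Ighm, the IgM heavy chain, and the receptor Cd22 rose, where 13.9% of all genes did so, and none with the 6 compared libraries alone. Without maintenance library 3 only Ighm rose, a share below the 14.1% of all genes that did so. The Ighm call ended without regain library 3 (1.08) or maintenance library 1 (1.71), and the Cd22 call without regain library 3 (2.18), maintenance library 1 (2.31) or maintenance library 3 (2.0). Ighm was at 541, 639 and 2300.1 CPM in regain libraries, against 125, 296 and 416 CPM in maintenance libraries. The kappa chain gene Igkc was at 79.1, 38.4 and 829 CPM in regain libraries, against 111, 136 and 13.5 CPM in maintenance libraries and was not called. Regain library 3 held the highest value for both. None of 10 mast cell genes was called in either fit. Kit, the stem cell factor receptor, was at 11.7, 15.4 and 17.0 CPM in regain libraries, against 8.49, 7.70 and 11.9 CPM in maintenance libraries (adjusted p = 0.212).

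**Figure D3:**
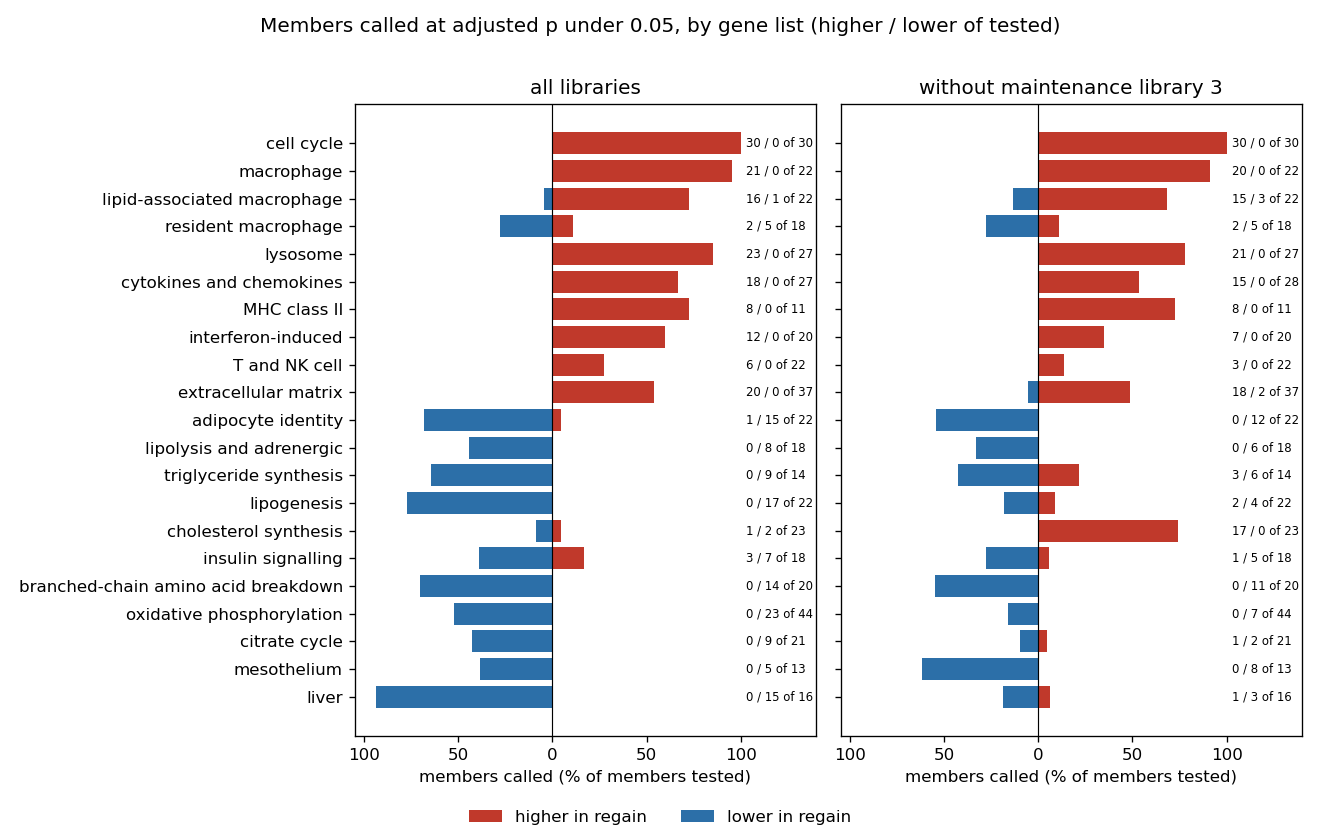
Share of the tested members of 21 gene lists called higher in regain (red, to the right) or lower (blue, to the left), with all libraries and without maintenance library 3, with the counts beside the bars. Cell cycle, macrophage, lysosome and MHC class II lists keep most of their calls, whereas the lipogenesis list goes to 4 lower and 2 higher and the cholesterol synthesis list to 17 higher without that library.

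All 30 cell cycle and DNA replication genes rose in regain, in both fits and with no overlap of the groups for any of them. Of all genes tested 13.9% rose, and for 17.6% regain lay above maintenance without overlap. The median log2 fold change of the list was 2.92, and 2.75 without maintenance library 3, with a range of 0.63 to 3.75. Mki67, the proliferation antigen Ki-67, was at 63.7, 97.7 and 96.9 CPM in regain libraries, against 10.3, 8.68 and 5.26 CPM in maintenance libraries (log2 fold change 3.41 ± 0.41, adjusted p = 2.34e-05). The kinetochore motor Cenpe was at 14.7, 19.4 and 19.7 CPM in regain libraries, against 1.36, 1.51 and 1.46 CPM in maintenance libraries (log2 fold change 3.63 ± 0.39, adjusted p = 1.39e-05). Ube2c, the ubiquitin enzyme that ends mitosis, was at 9.62, 21.7 and 19.1 CPM in regain libraries, against 2.19, 2.12 and 2.56 CPM in maintenance libraries (log2 fold change 2.87 ± 0.30, adjusted p = 1.11e-05). The DNA topoisomerase Top2a was at 45.1, 69.1 and 76.7 CPM in regain libraries, against 8.26, 4.81 and 4.20 CPM in maintenance libraries (log2 fold change 3.46 ± 0.41, adjusted p = 2.34e-05). Regain library 1 was the lowest regain library for all 4 genes. For 29 of the 30 genes the call held without any 1 of the 6 libraries. That of Tyms, thymidylate synthase, ended without maintenance library 2 (0.53). The macrophage list was higher in the same libraries, and which cells carried these transcripts was not tested.

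Since these genes rose together, the bases before the start of Ube2c and of Cdk1, the mitotic kinase (2.80 ± 0.39), chosen after their values were seen, are shown with the letters that many cell cycle promoters hold. Capitals mark every match, on either strand, to TTTGAA, the cell cycle homology region, or to CCAAT, the box bound by NF-Y. The sequences are RefSeq's for GRCm38.p6, read on the strand of the gene, for the 250 bases before the annotated start, on chr2:164769679-164769928 (plus strand) and chr10:69352913-69353162 (minus strand). A different annotation of GRCm38 starts Cdk1 at base 69352938, inside this window, so its last TTTGAA lies past that start.
Ube2c: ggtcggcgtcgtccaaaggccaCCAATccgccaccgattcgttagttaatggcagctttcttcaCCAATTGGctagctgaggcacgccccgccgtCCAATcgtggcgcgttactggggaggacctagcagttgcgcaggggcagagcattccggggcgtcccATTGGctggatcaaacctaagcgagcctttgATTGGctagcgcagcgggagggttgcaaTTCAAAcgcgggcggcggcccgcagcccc
Cdk1: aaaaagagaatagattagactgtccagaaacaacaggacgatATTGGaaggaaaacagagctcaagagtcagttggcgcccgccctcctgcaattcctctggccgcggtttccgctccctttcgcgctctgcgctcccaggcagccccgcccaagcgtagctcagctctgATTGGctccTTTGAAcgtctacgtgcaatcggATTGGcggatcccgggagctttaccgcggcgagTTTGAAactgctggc
Promoters were found for 25 of the 30 genes, and the first by position was read where a gene had several. Of the 25, 8 held TTTGAA on either strand (32%), against 16.3% of all 27025 genes with a promoter, and 21 held CCAAT (84%), against 34.2%. In Ube2c a pair of CCAAT matches on opposite strands shares letters, and TTTGAA and CCAAT share none. A match describes the letters, not a bound factor. No promoter entry was read for Ccna2, Aurkb, Kif20a, Tpx2 and Mcm4.

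Extracellular matrix genes rose in 20 of 37 cases and fell in none, with a median log2 fold change of 0.99 (18 higher and 2 lower without maintenance library 3). Over the whole list, regain lay above maintenance without overlap for 22 of 37 genes, where 17.6% of all genes tested did so. All 20 that were called were among these. Col1a1, a chain of type I collagen, was at 523, 978 and 780.2 CPM in regain libraries, against 188, 203 and 186 CPM in maintenance libraries (log2 fold change 1.98 ± 0.33, adjusted p = 0.000188). Col3a1, of type III collagen, was at 2086, 3358 and 2886 CPM in regain libraries, against 815, 596 and 850.3 CPM in maintenance libraries (log2 fold change 1.88 ± 0.37, adjusted p = 0.000900). The metalloproteinase inhibitor Timp1 was at 46.5, 25.1 and 20.1 CPM in regain libraries, against 7.66, 3.87 and 1.90 CPM in maintenance libraries (log2 fold change 2.77 ± 0.60, adjusted p = 0.00212). Col6a1, a collagen of adipose pericellular matrix, rose by 1.47 ± 0.31. Elastin (Eln) was at 66.8, 122 and 37.7 CPM in regain libraries, against 55.6, 84.2 and 57.2 CPM in maintenance libraries, with overlapping groups (adjusted p = 0.772). The genes called lower without maintenance library 3 were Thbs1, thrombospondin (-1.57), and the proteoglycan Dcn (-1.27). With the 6 compared libraries alone 10 of the list rose.

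Of 18 endothelial and angiogenic genes Vegfa fell with all libraries, a share below the 13% of all genes tested that fell. Without maintenance library 3 Vegfa fell and 1 other gene of the list rose. Vegfa, a vascular growth factor gene, was at 99.0, 87.5 and 73.7 CPM in regain libraries, against 243, 409 and 256 CPM in maintenance libraries (log2 fold change -1.81 ± 0.36, adjusted p = 0.00115). Of 15 stromal progenitor genes F3, tissue factor, fell in both fits (-1.0 ± 0.24) and no other was called, again a share below that background. Among 20 immediate early and heat shock genes 7 rose and 1 fell (6 and 0 without maintenance library 3, and 4 and 0 with the 6 compared libraries alone). Egr2, a transcription factor of activated macrophages, was at 39.9, 29.8 and 32.3 CPM in regain libraries, against 2.45, 3.73 and 2.65 CPM in maintenance libraries (log2 fold change 3.52 ± 0.44, adjusted p = 2.34e-05). Fos, an immediate early factor, was at 93.6, 67.1 and 77.6 CPM in regain libraries, against 15.7, 24.8 and 4.06 CPM in maintenance libraries (log2 fold change 2.42 ± 0.50, adjusted p = 0.00152). Atf3 (2.89 ± 0.50) and Junb (1.76 ± 0.30) rose too. For all 4 genes the regain libraries lay above every maintenance library.

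The lipogenic list turned on maintenance library 3. With all libraries 17 of 22 fell and none rose, with a median log2 fold change of -2.39. With the same libraries DESeq2 called 9 lower, limma on FPKM 4, and the model of the 6 compared libraries alone 1. Without that library 4 fell, 2 rose, and the median was 0.25, with the sign differing for 12 genes. Of all genes tested in that fit, 12.9% fell and 14.1% rose. That library was the highest of the 6 for all 22. Fasn, fatty acid synthase, was at 812, 801 and 717 CPM in regain libraries, against 401, 758 and 29343 CPM in maintenance libraries. Acly, which makes cytosolic acetyl-CoA, was at 167, 264 and 244 CPM in regain libraries, against 116, 137 and 10968 CPM in maintenance libraries. It was called lower with all libraries (-4.06, adjusted p = 0.00514) and higher without maintenance library 3 (0.80, adjusted p = 0.00463). The Fasn call ended without regain library 2 (-3.75), regain library 3 (-3.65) or maintenance library 3 (0.39). Thrsp, a lipogenic nuclear protein gene, was at 177, 237 and 172 CPM in regain libraries, against 377, 211 and 6055 CPM in maintenance libraries. The Thrsp call ended without maintenance library 3 (-0.63).

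The 4 lipogenic genes lower in both fits were Acaca, Acacb, Scd1 and Scd3. Acacb, the mitochondrial acetyl-CoA carboxylase, was at 57.8, 56.6 and 40.9 CPM in regain libraries, against 239, 241 and 678 CPM in maintenance libraries (log2 fold change -2.90 ± 0.42, adjusted p = 6.35e-05; -2.25 without maintenance library 3). Acaca, its cytosolic form, was at 138, 121 and 143 CPM in regain libraries, against 346, 302 and 4885 CPM in maintenance libraries (log2 fold change -3.78 ± 0.72, adjusted p = 0.000722; -1.31 without maintenance library 3). Scd1, the stearoyl-CoA desaturase of fat and liver, was at 7882, 14055 and 11737 CPM in regain libraries, against 27518, 46128 and 92686 CPM in maintenance libraries (log2 fold change -2.30 ± 0.62, adjusted p = 0.00978; -1.75 without that library). For each, all regain libraries lay below all maintenance libraries. Scd3, a close paralog of Scd1, was at 0.337, 0.308 and 0.182 CPM in regain libraries, against 1.17, 0.639 and 2.47 CPM in maintenance libraries (log2 fold change -2.35 ± 0.55, adjusted p = 0.00365). Reads matching several Scd genes may have been split between them. Scd2, another paralog, was at 229, 562 and 321 CPM in regain libraries, against 21.4, 43.8 and 2596 CPM in maintenance libraries. It was called only without maintenance library 3 (3.48 ± 0.50, adjusted p = 0.000160).

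Of 23 cholesterol synthesis genes 1 was called higher and 2 lower with all libraries, but 17 higher and none lower without maintenance library 3, with median log2 fold changes of -0.54 and 1.13. Limma on FPKM gave 1 higher and none lower with all libraries, and the 6 compared libraries alone gave none. The mean log2 CPM of the list was 5.08, 5.62 and 5.11 in regain libraries, against 4.15, 4.40 and 6.88 in maintenance libraries. Dhcr7, which makes cholesterol from its last precursor, was at 20.7, 38.1 and 32.7 CPM in regain libraries, against 5.51, 7.64 and 88.9 CPM in maintenance libraries (adjusted p = 0.876). Without maintenance library 3 its log2 fold change was 2.18 ± 0.28 (adjusted p = 9.73e-05). Every regain library lay above maintenance libraries 1 and 2 and below maintenance library 3. Srebf2, the transcription factor that drives this pathway, was at 65.0, 101 and 86.3 CPM in regain libraries, against 41.1, 53.0 and 62.1 CPM in maintenance libraries (log2 fold change 0.69 ± 0.21, adjusted p = 0.0210). Its call ended without regain library 2 (0.54), regain library 3 (0.68) or maintenance library 1 (0.55). It was the member of the list with all regain libraries above all maintenance libraries. Pmvk (-1.53) and the squalene synthase Fdft1 (-0.99) were the 2 calls downward. The Pmvk call ended without regain library 1 (-1.40), regain library 3 (-1.52) or maintenance library 3 (0.014). The Fdft1 call ended without regain library 2 (-1.07), regain library 3 (-0.81) or maintenance library 3 (-0.59).

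Promoters of the pathway are shown for Hmgcs1, the synthase at its entry, and Idi1, the isopentenyl diphosphate isomerase, picked after their values were seen. Capitals mark matches on either strand to CCAAT or to TCACNCCAC, the sterol regulatory element in which N is any base. The 250 bases before each start are RefSeq's for GRCm38.p6 on chr13:119690101-119690350 and chr13:8885356-8885605, both on the plus strand. A different annotation of GRCm38 starts Idi1 at base 8885501, inside this window, so both of its marked matches lie past that start.
Hmgcs1: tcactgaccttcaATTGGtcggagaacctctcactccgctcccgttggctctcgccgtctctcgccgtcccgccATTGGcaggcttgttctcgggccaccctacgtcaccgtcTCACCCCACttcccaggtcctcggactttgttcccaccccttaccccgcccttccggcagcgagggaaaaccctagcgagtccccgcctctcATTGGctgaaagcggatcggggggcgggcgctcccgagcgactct
Idi1: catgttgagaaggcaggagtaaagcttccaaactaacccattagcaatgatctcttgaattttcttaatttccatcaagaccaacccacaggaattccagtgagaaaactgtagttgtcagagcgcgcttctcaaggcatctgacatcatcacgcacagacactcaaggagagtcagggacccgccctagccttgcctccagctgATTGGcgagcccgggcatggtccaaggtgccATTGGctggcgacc
Promoters were found for 16 of the 24 genes of the list. Of these 15 held CCAAT (93.8%), against 34.2% of all genes with a promoter, and 1, Hmgcs1, held TCACNCCAC (6.25%), against 1.03%. Hmgcs1 itself was at 171, 416 and 318 CPM in regain libraries, against 364, 362 and 552 CPM in maintenance libraries (adjusted p = 0.345, and 0.612 without maintenance library 3). Idi1 was at 31.0, 42.3 and 33.0 CPM in regain libraries, against 16.3, 16.2 and 141 CPM in maintenance libraries and was called only without maintenance library 3 (1.09, adjusted p = 0.000729). Among the genes with no promoter entry read were Fdps, Fdft1, Sqle and Stard4.

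Genes of branched-chain amino acid breakdown, which feeds lipogenesis and the citrate cycle in adipocytes, fell in 14 of 20 cases and rose in none (11 and 0 without maintenance library 3). Ivd, isovaleryl-CoA dehydrogenase, was at 121, 103.1 and 111 CPM in regain libraries, against 303, 273 and 233 CPM in maintenance libraries (log2 fold change -1.27 ± 0.25, adjusted p = 0.000843). Hibch, of the valine branch, was at 88.3, 65.3 and 61.2 CPM in regain libraries, against 248, 148 and 182 CPM in maintenance libraries (log2 fold change -1.43 ± 0.29, adjusted p = 0.00122). Mccc2 (-1.28 ± 0.26) and Acadsb (-0.97 ± 0.22) fell likewise, with no overlap between groups for any of the 4.

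Nuclear genes of oxidative phosphorylation fell in 23 of 44 cases, but in 7 without maintenance library 3, with medians of -0.74 and -0.42. Of all genes tested 13% fell, and 12.9% without that library. The share of 7 in 44 was close to that background. Sdha, a succinate dehydrogenase subunit, was at 342, 328 and 397 CPM in regain libraries, against 514, 447 and 952 CPM in maintenance libraries (log2 fold change -0.84 ± 0.21, adjusted p = 0.00557; -0.47 without maintenance library 3). Atp5c1 (-0.88 ± 0.22) and Ndufb9 (-1.09 ± 0.29) fell in both fits. With the 6 compared libraries alone none of the list was called. Of 13 transcripts of the mitochondrial genome 5 fell (2 without maintenance library 3, a share close to that background, and none with the 6 compared libraries alone). Together these transcripts made up 2.48, 2.93 and 2.05% of all counts in regain libraries, against 3.51, 3.05 and 4.88% in maintenance libraries. Citrate cycle genes fell in 9 of 21 cases, and without maintenance library 3 in 2, Suclg2 and Sdha, with Dlat higher (0.53). The share of 2 in 21 was below that background. None was called with the 6 compared libraries alone. Suclg2, a succinyl-CoA ligase subunit, had log2 fold changes of -0.69 ± 0.17 with all libraries and -0.67 without that library, while the calls of Pcx and Pdha1 ended without that library (-0.66 and -0.23).

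The thermogenic gene Ucp1 was at 0.112, 0.894 and 10.9 CPM in regain libraries, against 0.189, 0.572 and 0.486 CPM in maintenance libraries. Its call (3.25 ± 1.10, adjusted p = 0.0336) ended without regain library 3 (0.29), maintenance library 1 (2.89), maintenance library 2 (3.56) or maintenance library 3 (3.33). Ebf2, a transcription factor of brown and beige fat, was at 18.5, 22.3 and 24.1 CPM in regain libraries, against 48.2, 48.2 and 33.7 CPM in maintenance libraries (log2 fold change -1.0 ± 0.25, adjusted p = 0.00525). Ppargc1a, a coactivator of mitochondrial genes, was at 3.07, 3.51 and 3.75 CPM in regain libraries, against 8.37, 5.82 and 7.29 CPM in maintenance libraries (log2 fold change -1.05 ± 0.30, adjusted p = 0.0142). Its call ended without regain library 1 (-0.97) or maintenance library 1 (-0.92). Of 13 thermogenic genes 5 fell and 1 rose with all libraries, against 2 and 2 without maintenance library 3, and 2 and 0 with the 6 compared libraries alone. Without maintenance library 3, both shares were close to the 12.9% of all genes that fell and the 14.1% that rose. Of 19 circadian clock genes 2 fell, among them Per1, a share below the 13% of all genes that fell. Without maintenance library 3, 2 fell and 2 rose, Bhlhe40 (1.51) and Bhlhe41 (1.30), and 1 fell with the 6 compared libraries alone. Per1, of the clock's negative limb, was at 27.4, 46.1 and 37.6 CPM in regain libraries, against 92.9, 109.5 and 36.8 CPM in maintenance libraries (log2 fold change -1.11 ± 0.30, adjusted p = 0.00895). The Per1 call ended without regain library 1 (-0.92) or maintenance library 2 (-0.81). The repressor gene Nr1d1 was at 38.3, 77.4 and 76.1 CPM in regain libraries, against 95.9, 87.7 and 170.0 CPM in maintenance libraries and was not called (adjusted p = 0.0687). The labels give no hour of tissue collection.

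Of 15 acute-phase genes of adipose tissue 4 rose and 3 fell, against 0 and 2 without maintenance library 3, and 1 and 1 with the 6 compared libraries alone. Over all genes tested 13.9% rose and 13% fell. Without maintenance library 3, the share of the list that fell was close to the 12.9% of all genes that did so. Saa3, serum amyloid A3, was at 209, 83.4 and 36.8 CPM in regain libraries, against 21.3, 6.59 and 8.48 CPM in maintenance libraries (log2 fold change 3.18 ± 0.95, adjusted p = 0.0172), with no overlap. Its call ended without regain library 1 (2.32), maintenance library 2 (2.87) or maintenance library 3 (2.94). Cp, the copper carrier ceruloplasmin, was at 122, 82.5 and 111 CPM in regain libraries, against 350.2, 203 and 342 CPM in maintenance libraries (log2 fold change -1.51 ± 0.27, adjusted p = 0.000384). In the unfolded protein response Asns, asparagine synthetase, was at 31.9, 28.8 and 24.2 CPM in regain libraries, against 135, 77.5 and 74.7 CPM in maintenance libraries (log2 fold change -1.76 ± 0.26, adjusted p = 7.38e-05). The transcription factor Xbp1 fell too (-0.74 ± 0.17), while the chaperone cofactor Sdf2l1 rose (1.42 ± 0.28). Thus 1 of 16 rose and 2 fell, shares no higher than the 13.9% and 13% of all genes tested that did so. Limma on FPKM gave 3 higher and 2 lower. None of 30 ribosomal protein genes was called in either fit. Rps19, with the smallest adjusted p of them, was at 466, 265 and 276 CPM in regain libraries, against 623, 335 and 453 CPM in maintenance libraries (adjusted p = 0.198).

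Transcripts of tissues that border or cover the fat pad differed between the groups too. Mesothelial genes fell in 5 of 13 cases, and in 8 without maintenance library 3. DESeq2 and limma on FPKM each called 10 lower, and the 6 compared libraries alone 1. Summed, they were at 98.5, 13.4 and 11.2 CPM in regain libraries, against 649.5, 243 and 119 CPM in maintenance libraries. Wt1, a transcription factor of the mesothelium, was at 7.41, 4.04 and 2.63 CPM in regain libraries, against 45.5, 13.4 and 4.59 CPM in maintenance libraries (log2 fold change -2.18 ± 0.57, adjusted p = 0.00758). The Wt1 call ended without maintenance library 1 (-0.95). Muc16 was at 0.674, 0.0617 and 0 CPM in regain libraries, against 14.9, 2.36 and 1.02 CPM in maintenance libraries. Its call ended without regain library 2 (-4.22), regain library 3 (-4.07) or maintenance library 1 (-2.83). The keratin gene Krt18 (-4.06) lost its call without regain library 2 (-3.72), regain library 3 (-3.59) or maintenance library 1 (-3.54). Krt7 (-3.26) lost its call without regain library 2 (-2.92), regain library 3 (-2.89) or maintenance library 1 (-2.27). Epididymal duct and sperm genes summed to 0.300, 2.81 and 0.757 CPM in regain libraries, against 15.5, 39.7 and 95.1 CPM in maintenance libraries. Lcn5, Adam7, Spint4, Cdh16 and Tnp1 had no count in any regain library. Of these, Lcn5, Adam7, Spint4 and Cdh16 had none in maintenance library 1 either. In maintenance libraries Lcn5 had 0, 0 and 13 counts, and Spint4 0, 1 and 26. The list summed to 2.59, 2.48 and 0.276 CPM in gain4 libraries, and to 0.374, 2.01 and 17.3 CPM in control16 libraries. Low sums were thus not particular to regain. The sum in maintenance library 3 held 746 counts of Hnf4a and 209 of Cldn2, which liver expresses too, and the part of liver transcripts in it was not tested. The sperm protamine gene Prm1 had 0, 1 and 3 counts in regain libraries, against 61, 95 and 240 in maintenance libraries. Red cell genes summed to 1069.8, 646 and 1220.4 CPM in regain libraries, against 4136, 1419 and 1520.3 CPM in maintenance libraries. None was called with all libraries, and the beta-globins Hbb-bt (-1.58) and Hbb-bs (-1.67) fell without maintenance library 3.

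Of the 16 liver genes 15 were called lower with all libraries and 3 without maintenance library 3, where 1 was higher. With all libraries DESeq2 called 2 lower, limma on FPKM 4, and the 6 compared libraries alone 1. Cyp2e1, a cytochrome P450 gene of liver and fat, was at 89.4, 267 and 123 CPM in regain libraries, against 8078, 1665 and 1213 CPM in maintenance libraries (log2 fold change -4.51 ± 0.83, adjusted p = 0.000516; -4.98 without maintenance library 3). It was lower in every regain library than in maintenance libraries 1 and 2, which held few other liver transcripts. Of 8 skeletal muscle genes Tnni2 rose (1.84 ± 0.48; 1.58), at 2.36, 1.14 and 1.09 CPM in regain libraries, against 0.453, 0.538 and 0.265 CPM in maintenance libraries. That share was close to the 13.9% of all genes tested that rose, and without maintenance library 3 the muscle list had 2 higher. None of 6 lymph node genes was called, and Glycam1 was at 0 in all 6 libraries.

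Other genes whose calls depended on maintenance library 3 were named by the smallest adjusted p. Those called lower only with it had their highest level in that library. Serpina3k, a serpin of the liver, was at 1.24, 3.39 and 1.06 CPM in regain libraries, against 13.6, 0.908 and 593 CPM in maintenance libraries. Hpd, of tyrosine breakdown, was at 0.524, 0.894 and 0.363 CPM in regain libraries, against 1.85, 0.976 and 96.6 CPM in maintenance libraries. Gnmt, Tat, Cfhr2 and Tmem79 had the same order, with that library far above the 5 others. Without it their log2 fold changes lay between -2.34 (Tat) and -0.70 (Tmem79). Those called higher only with it moved little. The transport gene Cnih4 was at 47.4, 40.4 and 42.4 CPM in regain libraries, against 35.8, 33.9 and 29.8 CPM in maintenance libraries (log2 fold change 0.39 ± 0.097, adjusted p = 0.00570; 0.28, adjusted p = 0.0552 without it). Armcx3, Syngr2, Nagk, Zfp120 and Sesn1 had log2 fold changes of 0.48 (Nagk) to 0.89 (Sesn1) with it and 0.33 (Armcx3) to 0.64 (Sesn1) without it. Txnip, a thioredoxin inhibitor that responds to glucose, was called lower only without it, at 1402, 942 and 1178 CPM in regain libraries, against 2920.5, 3125 and 578 CPM in maintenance libraries (-1.40, adjusted p = 0.000528 without it). So were Lta4h (-0.79), Trim11 (-0.83), Rsrp1 (-1.17), Elac1 (-0.53) and Letm2 (-1.35). For all 6, maintenance library 3 was the lowest library. Beside Dhcr7 and Scd2, those called higher only without it included Mapkap1 (0.69), Ank (1.19) and Nrep (2.10).

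Whether 4 weeks of high-fat diet acted differently after an earlier gain and loss was read as a difference of effects, the log2 fold change of regain over maintenance minus that of gain4 over control16. The test called 1148 of 17821 genes (6.44%), 578 above 0 (3.24%) and 570 below 0 (3.2%). The smallest adjusted p was 0.0381, and 5064 genes had an unadjusted p under 0.05. Without maintenance library 3 it called 1 gene (0.00545%), with 5089 genes at an unadjusted p under 0.05. That gene, Ggt5, a gamma-glutamyl transferase gene named after its values were seen, was at 46.4, 30.8 and 35.1 CPM in regain libraries, against 108, 72.7 and 31.3 CPM in maintenance libraries. It was at 63.1, 53.4 and 63.3 CPM in gain4 libraries, against 42.7, 44.7 and 52.8 CPM in control16 libraries (difference -1.70, adjusted p = 0.0254 without maintenance library 3, and -1.28 ± 0.37, adjusted p = 0.0460 with it). The count was 0 without regain library 3, gain4 library 1 or 2, or control16 library 1 or 2, and 2885 without gain4 library 3. With a model of the 4 compared groups alone or with the replicate number as a block it was also 0, and DESeq2 called 2526.

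For the cell cycle and macrophage lists both groups with a last high-fat period lay above their counterparts. The mean log2 CPM of the cell cycle list was 3.99, 4.72 and 4.76 in regain libraries, against 2.05, 1.73 and 1.47 in maintenance libraries. It was 2.77, 3.05 and 3.81 in gain4 libraries, against 2.40, 2.13 and 2.10 in control16 libraries. For the macrophage list it was 8.19, 7.43 and 8.08 in regain libraries, against 6.22, 5.85 and 4.54 in maintenance libraries. It was 6.33, 6.31 and 7.08 in gain4 libraries, against 5.51, 5.53 and 5.68 in control16 libraries. Gain4 library 3 was the highest of its group in both lists. The adipocyte list was at 8.71, 9.0 and 8.85 in regain libraries, against 9.88, 9.99 and 10.18 in maintenance libraries. It was at 9.84, 9.86 and 9.37 in gain4 libraries, against 9.84, 9.57 and 10.02 in control16 libraries.

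Racgap1, a regulator of cell division, was at 16.8, 36.6 and 36.5 CPM in regain libraries, against 3.43, 4.61 and 4.11 CPM in maintenance libraries. It was at 9.71, 11.3 and 16.1 CPM in gain4 libraries, against 8.35, 6.55 and 6.86 CPM in control16 libraries. Its difference of effects was 2.11 ± 0.38 (adjusted p = 0.0381; 0.0603 without maintenance library 3). Hsd3b7, a gene of bile acid synthesis, was at 72.3, 77.6 and 76.9 CPM in regain libraries, against 178, 132 and 156 CPM in maintenance libraries. It was at 103.4, 109.8 and 91.8 CPM in gain4 libraries, against 106, 106 and 118 CPM in control16 libraries (difference -0.93 ± 0.16, adjusted p = 0.0381; 0.0603 without maintenance library 3). Trem2 was at 63.3, 124 and 166 CPM in gain4 libraries, against 5.50, 6.25 and 19.5 CPM in control16 libraries, and its difference of effects, -0.88 ± 0.89, was not called (adjusted p = 0.536).

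**Figure D4:**
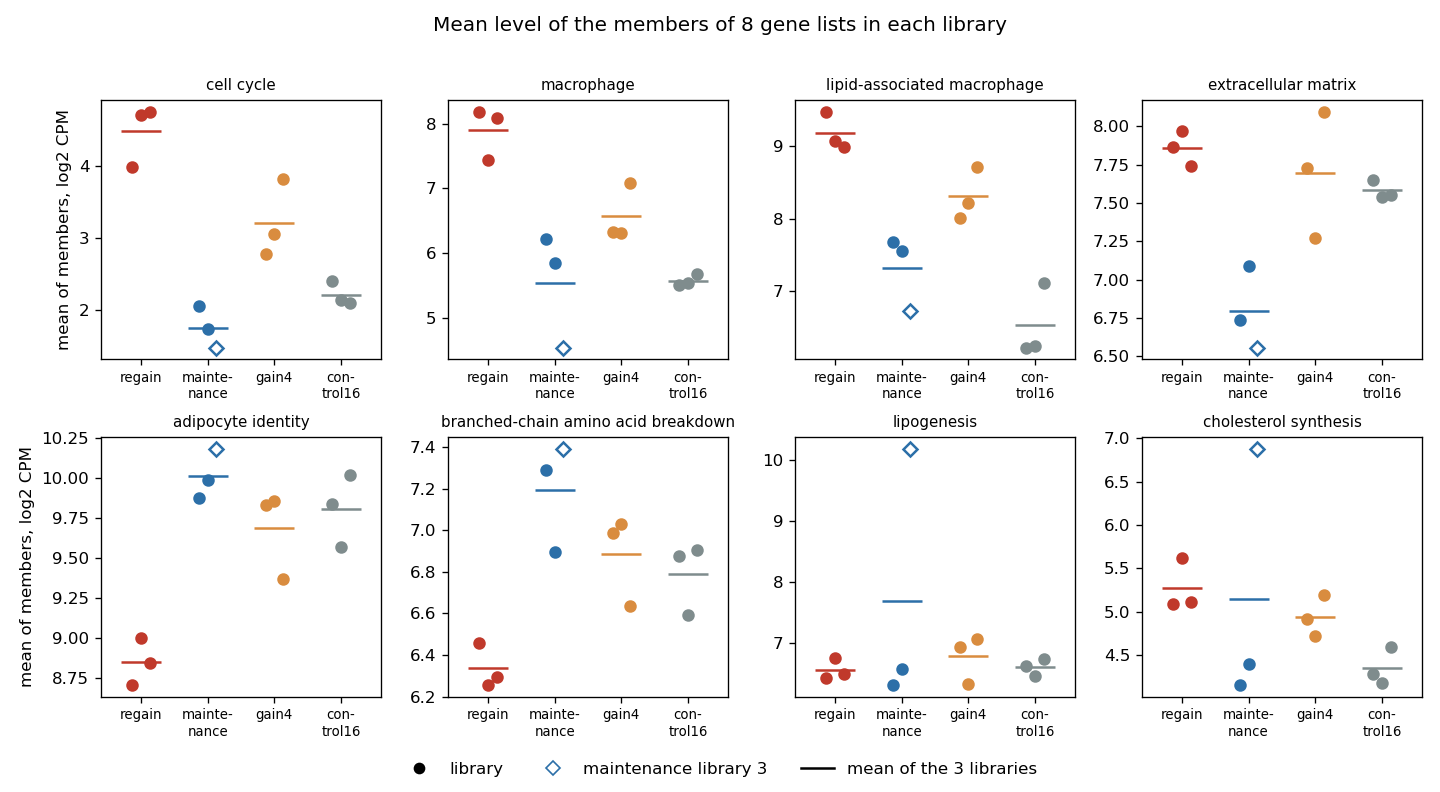
Mean log2 CPM of the members of 8 gene lists in each library of the regain, maintenance, gain4 and control16 groups, with lines at the group means and an open diamond for maintenance library 3. The 3 regain libraries lie above the gain4 libraries for the cell cycle, macrophage and lipid-associated macrophage lists and below them for the adipocyte and branched-chain amino acid lists, and maintenance library 3 lies far above all others for the lipogenesis and cholesterol synthesis lists.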

How the data were processed

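Total RNA from 60 to 70 mg of epididymal fat per sample was made into TruSeq RNA libraries, per the labels' protocols. Trimmomatic 0.33, TopHat2 2.0.13, HTSeq 0.6.0 and the builds mm10 and GRCm38 are named in the submitters' processing notes. The annotation and the strand setting are not given in the sources used here. Overlapping and antisense genes then cannot be told apart. The authors deposited raw read counts per gene (43616 rows) for all 27 libraries, and FPKM values for 22194 rows, scaled by the authors per exonic length and library size. Rows sharing a gene name were kept once, which left 43460 names.

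Counts were tested with edgeR 4.0.16 in R 4.3.3: filterByExpr by group (minimum count 10), TMM scaling, 1 mean per group over all 27 libraries, glmQLFTest with default settings, and Benjamini-Hochberg adjustment over all genes tested. Shown CPM values divide a gene's count by the TMM-scaled library total. The test was run on simulated counts with known changes. The members and lists were chosen with earlier results of these data known. Lists are described by their counts of calls and median only. The 10 genes with the largest change in each direction were taken among those called the same way with and without maintenance library 3, with groups that did not overlap and a higher group averaging 5 CPM or more. For each list the 4 genes with the smallest adjusted p were considered for the text, besides a fixed panel, and the 6 with the smallest adjusted p in each class whose call depended on maintenance library 3. Some genes that these rules chose are not reported here. Alternatives were DESeq2 1.42.0, RLE scaling, no filter, robust empirical Bayes, the compared groups alone, limma 3.58.1 on log2(FPKM + 1) or log2(FPKM + 0.1), the replicate number as a block, the set of 15 libraries with Lars2 above 1000 CPM as a term, and leaving out libraries. Promoters were read from RefSeq's table for GRCm38.p6. The deviations of same-numbered regain and maintenance libraries from their group means correlated at 0.378, -0.181 and 0.0596, so the numbers were not taken to pair the libraries. Counting error is small at these totals, and chi-square per degree of freedom between libraries of a group was 66.5 to 538, so no library was the same data deposited again. Separate preparations of 1 animal's RNA would also differ by more than counting error.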

Additional observations from a re-analysis of the deposited data

Results flagged for a closer look

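For 1148 of 17821 genes (6.44%), the effect of the last 4 weeks of high-fat diet was called different between regain against maintenance and gain4 against control16. This is by the test of the difference itself (edgeR's quasi-likelihood test, all libraries). The count was 1 without maintenance library 3, and 0 without regain library 3, gain4 library 1 or 2, or control16 library 1 or 2. It was also 0 with the 4 compared groups alone, but 2885 without gain4 library 3 and 2526 by DESeq2. Each difference below is the log2 fold change of regain over maintenance minus that of gain4 over control16, for the 6 genes with the smallest adjusted p in each direction.

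Among those above 0, the division gene Racgap1 had a difference of 2.11 ± 0.38, Tmem71 of 1.44 ± 0.26, Depdc1b, another division gene, of 3.96 ± 0.72, the creatine synthesis gene Gatm of 1.97 ± 0.37, the interferon-induced Samd9l of 1.40 ± 0.27 and the transcription factor gene Elf1 of 1.40 ± 0.27. Depdc1b was at 1.20, 2.07 and 2.39 CPM in regain libraries, against 0.113, 0.0673 and 0.0442 CPM in maintenance libraries, and at 0.526, 0.310 and 1.26 CPM in gain4 libraries, against 0.562, 0.444 and 0.372 CPM in control16 libraries. Gatm was at 40.7, 28.7 and 51.1 CPM in regain libraries, against 7.54, 6.49 and 8.52 CPM in maintenance libraries, and at 11.7, 10.3 and 17.7 CPM in gain4 libraries, against 7.23, 12.1 and 9.76 CPM in control16 libraries.

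Among those below 0, Hsd3b7 had a difference of -0.93 ± 0.16, Peo1, the mitochondrial DNA helicase gene, of -1.0 ± 0.17, Dgat1 of -2.44 ± 0.46, the uridine kinase gene Uck1 of -1.90 ± 0.38, Thrsp of -5.65 ± 1.15 and Fam195a of -2.30 ± 0.48. Dgat1 was at 220.3, 260.3 and 219 CPM in gain4 libraries, against 123, 104 and 169.9 CPM in control16 libraries, and Thrsp at 562, 831 and 438 CPM in gain4 libraries, against 134, 119.8 and 159.9 CPM in control16 libraries. None of the 12 was called without maintenance library 3, where each had an adjusted p of 0.0603, against 0.0381 with it. For Thrsp the difference was then -2.82, and for Uck1 -1.75.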

How the results depend on the processing

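The count of genes called between regain and maintenance, 4790, was 2928 to 4961 with 1 of the 6 libraries left out (1741 to 2586 higher and 1187 to 2467 lower). It was 1580 (1126 higher and 454 lower) with the 6 compared libraries alone, 3234 in them without maintenance library 3 (1451 lower), and 3688, 3694 and 3800 by limma on FPKM with pseudocounts of 1 and 0.1 and with no filter, of which 885, 891 and 860 were lower. DESeq2, RLE scaling, no filter, robust empirical Bayes and the Lars2-high libraries as a term gave 4098 to 5387. The difference of effects, 1148, was 0 to 2885 with 1 library of the 4 groups left out (0 to 1446 above 0 and 0 to 1571 below), and 2526 (1140 higher and 1386 lower) by DESeq2, 337 (163 higher and 174 lower) with no filter, 1743 (1418 higher and 325 lower), 1644 (1344 higher and 300 lower) and 979 (850 higher and 129 lower) by limma on FPKM, 727 (328 higher and 399 lower) with the Lars2-high libraries as a term, 1728 (746 higher and 982 lower) without maintenance library 3 and 1 library each of 2 other groups of the series, and 0 with the 4 compared groups alone. With the replicate number as a block the counts were 4481 (2375 higher and 2106 lower) and 0, and in the compared groups alone 935 (685 higher and 250 lower) and 0. The labels do not say that a number marks a shared animal, litter or day, and same-numbered libraries deviated together for 1 of the 3 numbers only, so the block was not used. The alternatives without maintenance library 3 in DESeq2 and in the compared groups alone were chosen after seeing the data. The cause of these changes was not tested.

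With 1 of the 6 libraries left out, some log2 fold changes turned sign, and their ranges were -4.63 to 0.80 for Acly, -0.32 to 1.19 for Ank, -1.79 to 1.51 for Bhlhe40, -0.43 to 1.30 for Bhlhe41, -1.17 to 1.70 for Dgat2, -0.64 to 2.18 for Dhcr7, -1.68 to 0.53 for Dlat, -0.34 to 0.52 for Eln, -0.98 to 1.60 for Fabp5, -4.27 to 0.39 for Fasn, -1.90 to 0.98 for Gpd1, -1.15 to 1.09 for Idi1, -0.56 to 2.39 for Igkc, -0.46 to 3.23 for Lars2, -0.052 to 2.87 for Mest, -2.27 to 1.60 for Mogat2, -1.25 to 0.23 for Nnat, -1.97 to 0.014 for Pmvk, -1.82 to 3.48 for Scd2 and -0.13 to 4.43 for Sfrp5. The same direction changes appeared wherever maintenance library 3 was out: by leaving out it and 2 libraries of other groups, in the 5 remaining compared libraries alone, or with DESeq2, the values were 0.79 or 0.80 for Acly, 1.5 or 1.51 or 1.52 for Bhlhe40, 1.29 or 1.31 for Bhlhe41, 1.69 or 1.70 for Dgat2, 2.17 or 2.19 for Dhcr7, 0.52 or 0.54 for Dlat, 1.59 or 1.60 for Fabp5, 0.38 or 0.40 for Fasn, 0.97 or 0.98 for Gpd1, 1.08 or 1.09 for Idi1, -0.058 or -0.060 or -0.052 for Mest, 1.59 or 1.61 for Mogat2, 0.0056 or 0.0076 or 0.019 for Pmvk, 3.47 or 3.48 for Scd2 and -0.14 or -0.13 for Sfrp5. On the FPKM scales the reversed values were 0.079 or 0.18 for Bhlhe40, 0.41 or 0.63 for Bhlhe41, 0.51 for Dgat2, 0.77 or 1.03 for Dhcr7, 0.59 or 0.61 for Fabp5, 0.14 or 0.20 for Idi1, 0.31 for Mogat2, 1.11 or 1.19 for Nnat, 1.36 or 1.48 for Scd2 and 0.31 or 0.43 for Thbs1. With the replicate block, they were 0.15 for Bhlhe41, 0.17 for Dhcr7 and -0.058 for Lars2. With the Lars2-high libraries as a model term, they were 0.018 for Bhlhe41 and -0.39 for Lars2. With the replicate block in the compared groups alone, they were 0.25 for Bhlhe40, 0.52 for Bhlhe41, 0.42 for Dgat2, 0.99 for Dhcr7, 0.57 for Fabp5, 0.12 for Idi1, 0.35 for Mogat2, 0.41 for Nnat and 2.02 for Scd2. The limits are few libraries per group, of which maintenance library 3 held liver transcripts and others differed in Lars2, and no record of which libraries come from separate animals. Genes near 0 in regain rest on few counts.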

Other observations

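Lymphocyte transcripts varied more among the regain libraries than most lists above. The summed B cell list was at 693, 706 and 3349 CPM in regain libraries, against 289.9, 496 and 439.9 CPM in maintenance libraries, so that regain library 3 held the highest value while regain libraries 1 and 2 lay near the maintenance values. The summed T and NK cell list was at 203, 152 and 312 CPM in regain libraries, against 69.2, 97.2 and 45.0 CPM in maintenance libraries. The mast cell list was at 314, 58.8 and 146 CPM in regain libraries, against 176, 73.2 and 91.7 CPM in maintenance libraries, with regain library 1 the highest. The lymph node list was at 40.2, 20.4 and 11.4 CPM in regain libraries, against 41.6, 23.6 and 30.2 CPM in maintenance libraries, and Glycam1, the node's vessel mucin, was at 0 in all 6.

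The mean log2 CPM of the stromal progenitor list was 5.34, 5.17 and 5.05 in regain libraries, against 5.05, 5.16 and 5.10 in maintenance libraries, and 5.34, 5.33 and 5.13 in gain4 libraries, against 5.77, 5.90 and 5.39 in control16 libraries. That of the extracellular matrix list was 7.87, 7.97 and 7.75 in regain libraries, against 6.73, 7.09 and 6.56 in maintenance libraries, and 7.73, 7.27 and 8.10 in gain4 libraries, against 7.65, 7.54 and 7.55 in control16 libraries. The matrix list was thus lower in every maintenance library than in every control16 library, which had the same diet in its last 4 weeks; maintenance against control16 was not tested here.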
